A study of Homo sapiens with 15 samples.

Results

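The genes described here are the protein-coding genes of the respiratory chain and ATP synthase, from both genomes of the cell, as named in GENCODE release 29. The rule that picks them reads the gene symbol: all 13 mRNAs of the mitochondrial genome (prefix MT-), and every nuclear gene with the prefix NDUFA, NDUFB, NDUFC, NDUFS, NDUFV, UQCR, SDH or ATP5, or COX followed by 4 to 8. That gave 116 of 58721 annotated genes, 13 of them mitochondrial and 103 nuclear. Of the nuclear genes, 86 encode subunits and 17 are accessory: assembly factors (8 named NDUFAF and 4 named SDHAF), the ATPase inhibitor ATP5IF1, the supercomplex factor COX7A2L, ATP5S, and the readthrough genes ATP5MF-PTCD1 and NDUFC2-KCTD14.

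All 15 RNA-seq libraries came from MelJuSo, an established human melanoma cell line, in 5 groups of 3. The cells expressed a catalytically inactive Cas12a carrying ALFA tags (5xALFA-dCas12a) and a nanobody that binds the tag. In 4 groups the dCas12a was fused to the activator VP64 and the nanobody to an activation domain: nanobody-p65 with a cassette of CD4 guides (p65 guides), nanobody-VP64 with the same cassette (VP64 guides), and nanobody-p65 or nanobody-VP64 without the cassette (p65 no guides, VP64 no guides). The fifth group had 5xALFA-dCas12a and the nanobody, both without an activation domain, and no guides (no domain). The question of the comparisons is what targeting, the choice of nanobody domain and the untargeted activators each did to transcript levels outside the targeted gene. Nothing in the labels tells if A, B and C, the replicate letters, stand for separate cultures, or whether each group was 1 transduced population, so p-values measure the spread between these samples, which may be technical.

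The respiratory chain passes electrons from NADH and succinate through complexes I and II, ubiquinone, complex III, cytochrome c and complex IV to oxygen, and the ATP synthase uses the resulting proton gradient. Complexes I, III, IV and the ATP synthase are built from proteins of both genomes, while complex II is wholly nuclear encoded. The mitochondrial mRNAs are cut from long polycistronic transcripts of both strands of the mitochondrial DNA, made by their own polymerase, POLRMT, so their levels are not independent of each other. Nuclear subunit genes have separate promoters, many with sites for the factors NRF1, the ETS protein GABP, YY1 and SP1.

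Adjacent mitochondrial mRNAs can share bases, which bears on how reads were divided between them. MT-ATP8, which encodes a small ATP synthase subunit, lies at chrM:8366-8572 (hg38, plus strand) and its last 46 bases are also the first bases of MT-ATP6. In the sequence below, taken from the GENCODE transcripts, capitals mark those shared bases.
MT-ATP8: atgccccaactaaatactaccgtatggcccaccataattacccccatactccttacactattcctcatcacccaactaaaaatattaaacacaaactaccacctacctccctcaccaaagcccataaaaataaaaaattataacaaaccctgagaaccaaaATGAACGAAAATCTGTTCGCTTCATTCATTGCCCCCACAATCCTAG
Promoter windows of 3 nuclear genes whose transcripts rose with guides in both nanobody backgrounds are shown next, since the motifs of the nuclear factors are visible in them. UQCRC1 and UQCR11 encode complex III subunits and COX5B a complex IV subunit. The windows run from 250 bases before to 50 bases after the annotated start (RefSeq, GRCh38.p14): COX5B at chr2:97645812-97646111 on the plus strand, UQCRC1 at chr3:48609597-48609896 and UQCR11 at chr19:1605413-1605712, both on the minus strand. Capitals mark matches, on either strand, to GCGCANGCG (NRF1), CCGGAAG (ETS), AAGATGG (YY1) or GGGCGG (SP).
COX5B: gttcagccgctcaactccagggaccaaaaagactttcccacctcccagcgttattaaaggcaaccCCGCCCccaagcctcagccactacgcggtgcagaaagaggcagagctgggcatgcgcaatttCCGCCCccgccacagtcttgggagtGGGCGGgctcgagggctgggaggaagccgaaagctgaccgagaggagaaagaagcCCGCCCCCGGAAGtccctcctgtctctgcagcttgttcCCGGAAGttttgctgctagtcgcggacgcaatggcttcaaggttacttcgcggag
UQCRC1: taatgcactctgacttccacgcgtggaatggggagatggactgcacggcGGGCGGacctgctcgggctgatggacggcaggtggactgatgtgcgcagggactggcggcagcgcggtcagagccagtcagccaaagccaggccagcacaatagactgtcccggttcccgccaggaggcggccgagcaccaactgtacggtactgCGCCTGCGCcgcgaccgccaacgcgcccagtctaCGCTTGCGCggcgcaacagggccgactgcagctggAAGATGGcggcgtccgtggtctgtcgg
UQCR11: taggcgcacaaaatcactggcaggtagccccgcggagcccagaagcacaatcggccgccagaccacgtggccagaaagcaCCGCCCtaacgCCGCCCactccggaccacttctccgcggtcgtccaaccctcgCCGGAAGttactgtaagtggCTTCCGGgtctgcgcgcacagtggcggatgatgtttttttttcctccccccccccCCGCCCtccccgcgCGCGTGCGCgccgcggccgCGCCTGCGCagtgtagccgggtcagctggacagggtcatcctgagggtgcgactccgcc
UQCR11 held 2 NRF1, 2 ETS and 3 SP matches, UQCRC1 held 2 NRF1, 1 YY1 and 1 SP match, and COX5B held 2 ETS and 4 SP matches, 1 ETS match directly following an SP match without sharing a base. RefSeq windows were matched to 80 of the 103 nuclear genes, 66 of them subunits. The NRF1 motif was in 22 of the 66 subunit windows (33.3%), against 11.0% of the 15843 protein-coding windows in the table. The ETS motif was in 28.8% of subunit windows, against 14.2%, and the YY1 motif in 24.2%, against 6.40%. The SP motif was about as frequent in subunits (57.6%) as in all windows (58.5%). Among the 18 matched genes that rose with guides in both backgrounds, 27.8% held the NRF1 motif, against 32.3% of the other 62, and 72.2% the SP motif, against 54.8%. The ETS motif was in 27.8%, against 27.4%, and the YY1 motif in 22.2%, against 19.4%. The windows of NDUFS8, NDUFV1 and NDUFAF3, which also rose in both backgrounds, held none of these motifs. Matches describe the letters of the windows only.

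Library totals ran from 15643705 to 23072512 expected counts. CD4, the targeted gene, averaged 2063 ± 115 CPM (reads scaled to the TMM-adjusted library size) in p65 guides and 1895 ± 68.7 CPM in VP64 guides, against 10.6 ± 0.563 CPM in p65 no guides, 8.83 ± 0.541 CPM in VP64 no guides and 3.20 ± 1.72 CPM in no domain (SD, n = 3 each). The melanocyte lineage factor SOX10 was at 122 to 237 TPM in the 15 libraries, while the melanocyte antigen MLANA stayed between 0 and 0.53 TPM. The T cell genes CD3D, CD3G and CD2 were at 0 in every library. Over all 14961 genes tested with edgeR's quasi-likelihood test, 40.6% were called at an adjusted p under 0.05 between VP64 guides and VP64 no guides and 38.9% between p65 guides and p65 no guides, so a call in those comparisons is common.

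On the TPM scale, which is per length, the mitochondrial mRNAs were the most abundant members. Their mean level over the 15 libraries had a median of 3955 TPM among the 13 genes, against 203 TPM among the 78 nuclear subunits with enough counts to test and 24.1 TPM among the 17 accessory genes. MT-CO2 and MT-CO1, core subunits of complex IV, averaged 5915 and 5057 TPM, and the complex I subunit MT-ND5, the lowest mitochondrial mRNA, averaged 1108 TPM. MT-ATP8 was listed at 18673 TPM, but its median effective length in the deposited files was 5.14 bases, and MT-ND4L and MT-ND3 had 35.1 and 61.6 bases, so per-length levels of these 3 are unreliable and their tests rest on counts. Among nuclear subunits the ATP synthase genes ATP5MF (1311 TPM) and ATP5PD (1018 TPM) and the complex IV genes COX8A (973 TPM) and COX6A1 (956 TPM) were highest. The effective length of ATP5MF, 81.2 bases, was also short.

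The form of each subunit that the line used was plain from the paralog pairs. The isoforms known from muscle, lung or testis were at or near 0: COX4I2, COX6A2, COX7A1 and COX7B2 had no count in any library, COX8C had 4 and COX6B2 had 24 over all 15. NDUFA4L2, a paralog of the complex IV subunit NDUFA4 known as a hypoxia-inducible gene, had 51 counts over all 15 libraries, and ATP5MGL had 1. These 8 genes were too low to test, which left 108 members tested, 13 mitochondrial and 95 nuclear. The ubiquitous partners COX4I1 and COX6A1 averaged 863 and 956 TPM. UQCRHL, a retrocopy of the complex III hinge gene UQCRH, averaged 0.977 TPM against 720 TPM for UQCRH.

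The 2 genomes differed in how much their transcripts varied. The 13 mitochondrial mRNAs together took 1.98%, 1.72% and 1.70% of the counts of p65 guides libraries A, B and C, and 1.38%, 1.32% and 1.56% of VP64 guides libraries. They took 2.03%, 2.47% and 1.81% of p65 no guides libraries, 1.52%, 1.55% and 1.70% of VP64 no guides libraries, and 1.42%, 1.56% and 1.26% of no domain libraries. Both p65 groups lay above the VP64 group with the same guide status, with no overlap, and p65 no guides replicate B was the highest of the 15. The 86 nuclear subunits took between 0.805% and 0.887% of counts in every library. Within a group, the SD of a gene's log2 CPM had a median of 0.17 over the mitochondrial mRNAs and 0.06 over the nuclear subunits. The mitochondrial mRNAs moved together within groups: in p65 no guides all 13 were highest in replicate B, in VP64 no guides all 13 were highest in replicate C, and in no domain 12 of 13 were highest in replicate B. In bulk RNA, fewer mitochondrial transcripts per cell and fewer cells rich in them cannot be told apart.

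**Figure D1:**
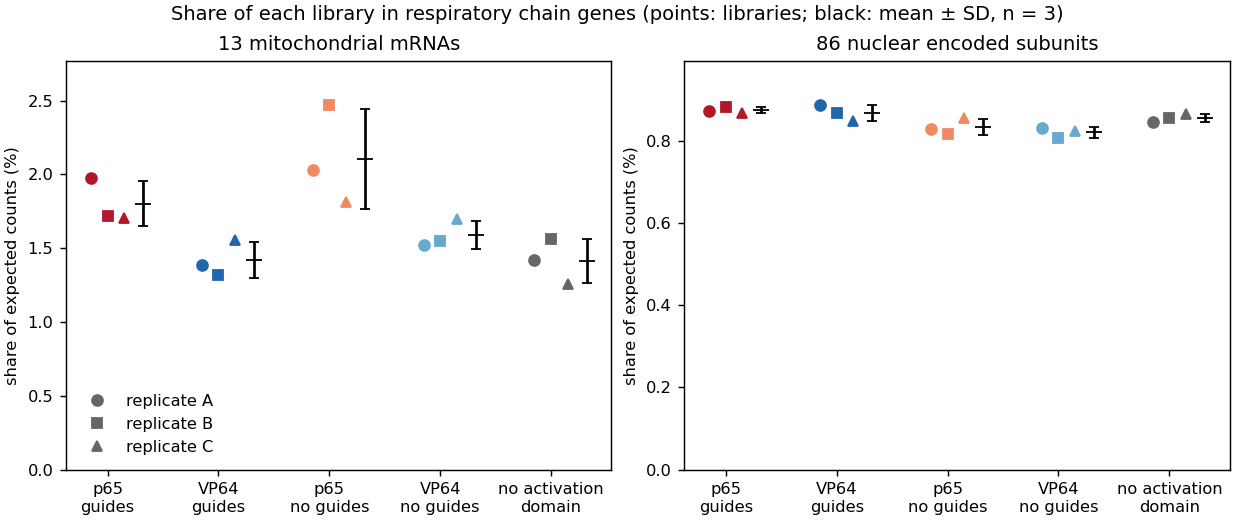
Share of each library's expected counts (percent) in the 13 mitochondrial mRNAs (left) and in the 86 nuclear encoded subunits (right), by group; points are libraries and black marks are the mean ± SD (n = 3). The mitochondrial share ran from 1.26% to 2.47%, the nuclear share from 0.805% to 0.887%.

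The clearest difference between the nanobody domains was in the mitochondrial mRNAs, which were higher with nanobody-p65 than with nanobody-VP64 whether or not guides were present. The 2 comparisons share no library. With guides, 9 of 13 mitochondrial mRNAs rose (69.2%) and none fell, beside 3.72% of all tested genes that rose and 4.20% that fell (7.92% in all), and the median log2 fold change was 0.33, against 0.00 over all genes. Without guides, 7 of 13 rose (53.8%) and none fell, beside 0.388% and 1.72% of all tested genes (2.11% in all), and the median was 0.37, against 0.00 over all genes. All 13 were positive in both comparisons. Of the 9 and the 7, 5 were shared, which is 55.6% and 71.4% of each list: MT-CO1 and MT-CO3 of complex IV and MT-ND1, MT-ND2 and MT-ND4 of complex I.

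MT-CO3, a complex IV core subunit, had 1881, 1771 and 1762 CPM in p65 guides and 1431, 1367 and 1511 CPM in VP64 guides. It had 1857, 2231 and 1812 CPM in p65 no guides and 1453, 1462 and 1567 CPM in VP64 no guides. The p65 libraries did not overlap the VP64 libraries in either pair, and the log2 fold change was 0.33 ± 0.07 (SE, adjusted p = 0.0024) with guides and 0.40 ± 0.07 (adjusted p = 0.0011) without. MT-CO1, the catalytic subunit of complex IV, had 5692, 5108 and 5126 CPM in p65 guides and 4096, 3953 and 4651 CPM in VP64 guides. Without guides it had 5921, 7133 and 5261 CPM with p65 and 4358, 4429 and 4770 CPM with VP64. Again no library overlapped, with log2 fold changes of 0.33 ± 0.08 (adjusted p = 0.017) and 0.43 ± 0.08 (adjusted p = 0.0048). MT-CYB, the mitochondrial subunit of complex III, was called only in the pair with guides (0.44 ± 0.11, adjusted p = 0.014). Without guides its log2 fold change was 0.27 ± 0.11 (adjusted p = 0.24).

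The number of calls moved with the libraries and the test, while MT-CO3 was called in both comparisons under every alternative run. DESeq2's Wald test called 3 with guides and 4 without, and an offset for the deposited effective lengths left 2 and 1. With guides, the count fell to 1 without VP64 guides replicate B, to 2 without p65 guides replicate A and to 3 without VP64 guides replicate A. Without guides, it fell to 2 without p65 no guides replicate B, VP64 no guides replicate A or VP64 no guides replicate B. The median difference between mitochondrial and nuclear subunits was positive in every one of these fits, between 0.25 and 0.39 (log2) with guides and between 0.23 and 0.49 without, the lowest value without guides being that without p65 no guides replicate B.

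**Figure D2:**
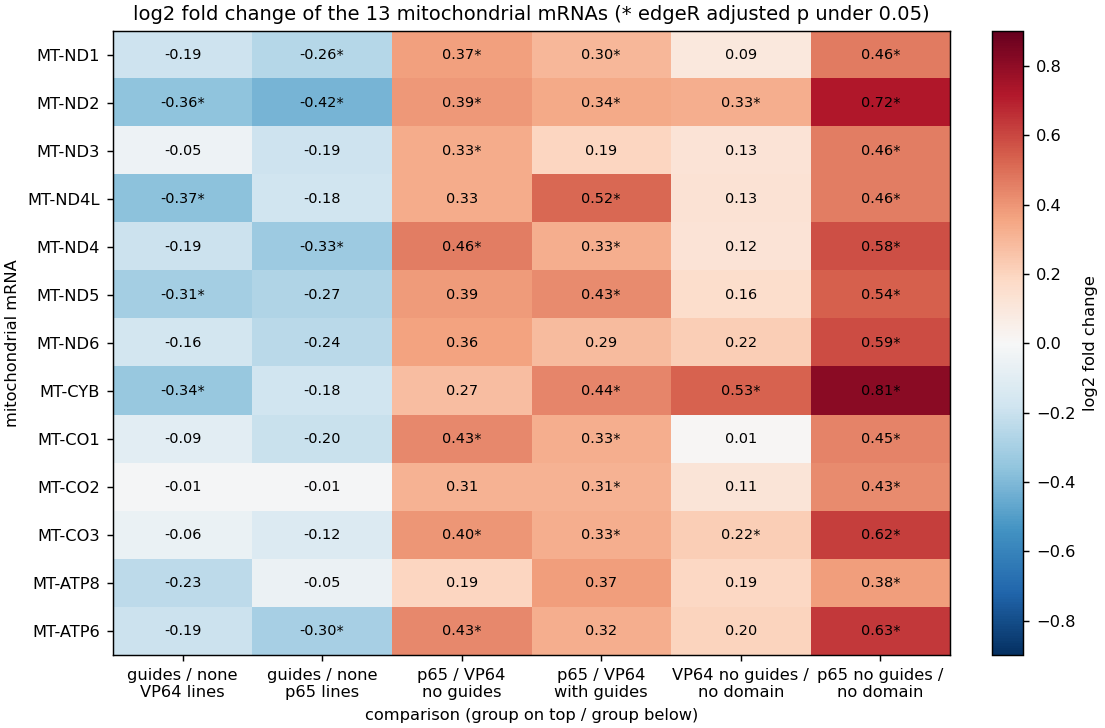
Log2 fold change of the 13 mitochondrial mRNAs (rows) in 6 comparisons (columns, group on top / group below), with an asterisk where the edgeR adjusted p was under 0.05. All values are negative in both guide comparisons and positive in the other 4, and MT-CYB without guides with p65 against no domain, at 0.81, is the highest.

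Among nuclear members the median log2 fold change between the domains was 0.01 without guides and 0.02 with guides. Without guides, 0 of 95 were called between p65 and VP64 by edgeR, with 9 at an unadjusted p under 0.05. Calls were rare there over all tested genes too (2.11%). With guides, 3 rose and 1 fell (4.21% called), beside 7.92% of all tested genes. The risers were NDUFAF4 (log2 fold change 0.30 ± 0.08, adjusted p = 0.019) and SDHAF2 (0.29 ± 0.07, adjusted p = 0.0090), assembly factors of complexes I and II, and NDUFAB1 (0.19 ± 0.05, adjusted p = 0.031), the mitochondrial acyl carrier protein. The complex I assembly factor NDUFAF3 fell (-0.23 ± 0.07, adjusted p = 0.040). NDUFAF4 was not called without VP64 guides replicate A or p65 guides replicate C, nor SDHAF2 without VP64 guides replicate C. SDHAF2 overlaps AP003108.2 on the same strand, so its counts depend on how RSEM divided shared reads. NDUFAB1 lost its call without replicate B or C of either group, and NDUFAF3 without replicate A or C of either group. With the effective-length offset, none of the 4 was called and NDUFAF4 changed sign to -0.08, so its direction here is uncertain.

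The mitochondrial rRNAs, which lie ahead of all the mRNAs but MT-ND6 on the same transcript, were also measured. MT-ND6 is on the other strand. MT-RNR2, the large rRNA, rose in p65 guides against VP64 guides (0.27 ± 0.08, adjusted p = 0.032), a call lost without VP64 guides replicate A or B or p65 guides replicate A or C, and had 0.24 ± 0.08 (adjusted p = 0.13) without guides. MT-RNR1, the small rRNA, had 0.21 ± 0.13 with guides and -0.15 ± 0.13 without (adjusted p = 0.39 and 0.66). All 22 mitochondrial tRNA genes were listed at 0 in every library.

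Addition of the CD4 guide cassette went with slightly lower mitochondrial mRNA levels and with a mixed, mostly upward, set of calls among nuclear subunits. In VP64 guides against VP64 no guides, 0 mitochondrial mRNAs rose and 4 of 13 fell (30.8%), beside 19.3% of all tested genes that rose and 21.3% that fell. In p65 guides against p65 no guides, 0 rose and again 4 fell, beside 18.7% and 20.2% of all tested genes. The share that fell was therefore not far from the background. The median log2 fold change was -0.19 with VP64 and -0.20 with p65, against 0.00 and -0.01 over all genes, and all 13 were negative in both, without the 2 comparisons sharing a library.

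MT-ND2, a complex I subunit, was the gene that fell in both. It had 1258, 1096 and 1137 CPM in p65 guides and 1558, 1825 and 1281 CPM in p65 no guides. With nanobody-VP64 it had 874, 865 and 1023 CPM in guides and 1113, 1179 and 1260 CPM in no guides. The libraries did not overlap in either pair, and the log2 fold changes were -0.42 ± 0.10 (adjusted p = 0.0016) with p65 and -0.36 ± 0.10 (adjusted p = 0.0048) with VP64. With VP64, MT-ND4L (-0.37), MT-CYB (-0.34) and MT-ND5 (-0.31) also fell, and with p65, MT-ND4 (-0.33), MT-ATP6 (-0.30) and MT-ND1 (-0.26). No complex IV mRNA was called: MT-CO2 had -0.01 ± 0.10 in both comparisons, MT-CO1 had -0.09 ± 0.08 with VP64 and -0.20 ± 0.08 with p65, and MT-CO3 had -0.06 ± 0.07 with VP64 and -0.12 ± 0.07 with p65. DESeq2 called 1 of 13 in each comparison. Leaving out 1 library moved the VP64 count to 1 (VP64 guides replicate B or VP64 no guides replicate C) or 2 (VP64 guides replicate A or VP64 no guides replicate B). It moved the p65 count to 1 (p65 guides replicate B or p65 no guides replicate B), 2 (p65 guides replicate C), 8 (p65 no guides replicate C) or 9 (p65 guides replicate A).

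The proportion of mitochondrial mRNA to mitochondrial rRNA counts was 5.64, 5.56 and 4.87 in p65 guides and 5.03, 4.79 and 5.32 in VP64 guides. It was 6.38, 7.65 and 7.19 in p65 no guides, 6.29, 5.14 and 6.77 in VP64 no guides and 6.13, 6.14 and 6.05 in no domain. The p65 groups did not overlap, and the VP64 groups overlapped through VP64 no guides replicate B, the library with the lowest share of protein-coding counts (98.0%). MT-RNR1 rose in p65 guides against p65 no guides (0.37 ± 0.13, adjusted p = 0.023), with 767, 631 and 847 CPM in p65 guides against 651, 588 and 495 CPM in p65 no guides, libraries that overlapped, and its call was lost without p65 guides replicate A or C or p65 no guides replicate C. Whether the amount of rRNA left by library preparation had a part in this was not tested.

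Among the 78 nuclear subunits tested, 22 rose (28.2%) and 6 fell (7.69%) with guides in the VP64 background, and 24 rose (30.8%) and 4 fell (5.13%) in the p65 background. The background shares were 19.3% and 21.3% with VP64 and 18.7% and 20.2% with p65. In either direction 35.9% of the subunits were called in each background, less than the 40.6% and 38.9% of all tested genes. The median log2 fold change was 0.07 in both, against 0.00 and -0.01 over all genes. The 17 that rose in both make up 77.3% of the VP64 list and 70.8% of the p65 list, and no subunit was called in opposite directions.

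**Figure D3:**
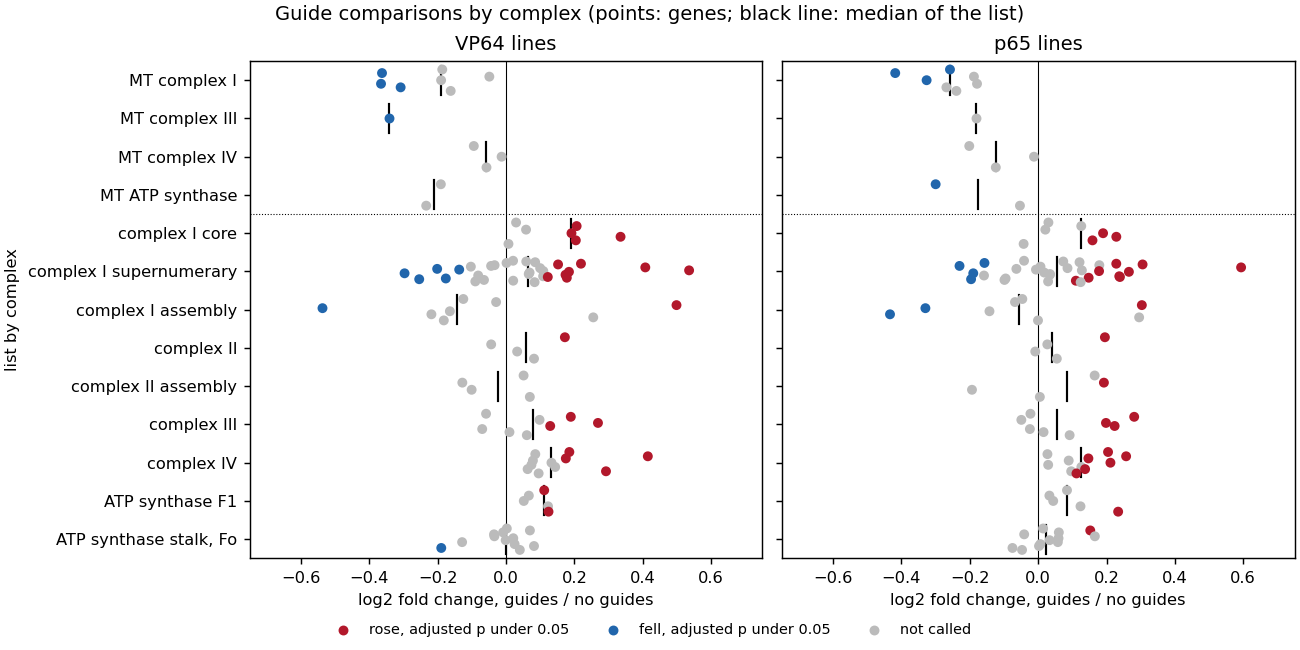
Log2 fold change of each member with guides against no guides, in the VP64 lines (left) and the p65 lines (right), grouped by complex; points are genes, coloured where the edgeR adjusted p was under 0.05, and black lines are list medians. The mitochondrial lists lie left of 0, while complex IV and the complex I core of the nuclear genome lie mostly right of it.

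Complex I core subunits, which carry the flavin, the iron-sulfur clusters and the quinone site, leaned upwards: 4 of 7 rose in the VP64 background and 3 of 7 in the p65 background, and none fell. These are 57.1% and 42.9% of a short list, beside 19.3% and 18.7% of all tested genes that rose. NDUFS8, an iron-sulfur protein, had 84.3, 78.8 and 80.1 CPM in p65 guides and 61.4, 72.1 and 73.8 CPM in p65 no guides. In the VP64 background it had 87.8, 83.6 and 87.7 CPM in guides and 69.5, 65.7 and 70.2 CPM in no guides. Libraries did not overlap, and the log2 fold changes were 0.23 ± 0.06 (adjusted p = 0.0026) and 0.33 ± 0.06 (adjusted p = 6.0e-05). NDUFS7, which holds the last cluster before ubiquinone, and NDUFV1, the flavoprotein, also rose in both, by 0.19 and 0.16 with p65 and 0.19 and 0.20 with VP64. The p65 call of NDUFV1 was lost without p65 guides replicate A or B or without p65 no guides replicate A or B. The largest core subunit, NDUFS1, had 0.03 in both.

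Complex I supernumerary subunits went both ways, 8 rising and 5 falling of 30 in the VP64 background and 9 rising and 4 falling in the p65 background. With 43.3% called in each background, the list was near the 40.6% and 38.9% of all tested genes. NDUFA7 rose most in the p65 background, with 20.9, 17.8 and 21.7 CPM in p65 guides and a mean of 13.4 ± 1.77 CPM in p65 no guides (SD, n = 3), and 23.7, 22.6 and 20.8 CPM in VP64 guides and 18.0, 16.1 and 16.5 CPM in VP64 no guides. Its log2 fold changes were 0.59 ± 0.10 (adjusted p = 8.8e-05) and 0.41 ± 0.10 (adjusted p = 0.0026). NDUFA7 overlaps the ribosomal protein gene RPS28, and the sources used here give no strandedness for the libraries, so the source of its reads is uncertain. The same limit holds for NDUFA2 (0.31 and 0.15) and NDUFB11 (0.27 and 0.18), which rose in the p65 and VP64 backgrounds and overlap genes on the opposite strand. NDUFA13 (0.23 and 0.22) also rose in both. It overlaps AC011448.1 and YJEFN3 on the same strand, so its counts depend on how RSEM divided shared reads. The VP64 call of NDUFA2 was lost with any 1 library left out but VP64 guides replicate C, and that of NDUFB11 without VP64 no guides replicate B. NDUFB1 rose in the VP64 background alone (0.54 ± 0.17, adjusted p = 0.014), a call lost without VP64 guides replicate B or VP64 no guides replicate A, and it had 0.13 ± 0.16 in the p65 background. In the other direction, NDUFC2, a membrane arm subunit, had 158, 152 and 166 CPM in p65 guides and 177, 177 and 192 CPM in p65 no guides. It had 162, 149 and 142 CPM in VP64 guides and 182, 188 and 171 CPM in VP64 no guides. It fell in both, by 0.20 ± 0.05 (adjusted p = 0.0038) and 0.25 ± 0.05 (adjusted p = 0.00038) on the log2 scale, with no overlap. NDUFB3, another membrane arm subunit, also fell in both (-0.19 and -0.30), though not with p65 guides replicate A, p65 no guides replicate A or p65 no guides replicate C left out of the p65 comparison. NDUFA5 fell in the p65 background (-0.23 ± 0.05, adjusted p = 0.00085).

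Complex I assembly factors included the nuclear members with the largest falls. NDUFAF4 had 20.5, 21.1 and 23.0 CPM in p65 guides and 25.3, 27.8 and 28.1 CPM in p65 no guides. In the VP64 background it had 16.2, 18.7 and 17.6 CPM in guides and 23.8, 27.2 and 25.5 CPM in no guides. It fell in both with no overlap, with log2 fold changes of -0.33 ± 0.07 (adjusted p = 0.00087) and -0.54 ± 0.08 (adjusted p = 6.0e-06). Its partner NDUFAF3, with which it is known to act early in assembly, rose in both: 24.0, 27.6 and 25.8 CPM in p65 guides against 20.5, 21.6 and 20.6 CPM in p65 no guides, and 30.8, 28.5 and 31.6 CPM in VP64 guides against 22.2, 21.8 and 20.3 CPM in VP64 no guides. Its log2 fold changes were 0.30 ± 0.07 (adjusted p = 0.0014) and 0.50 ± 0.07 (adjusted p = 5.5e-06). With the effective-length offset the VP64 call was lost (0.42, adjusted p = 0.057), and NDUFAF3 overlaps DALRD3. Of the 8 factors, 1 rose and 1 fell in the VP64 background, and 1 rose and 2 fell in the p65 background, the second being NDUFAF6 (-0.43 ± 0.15, adjusted p = 0.025), whose call was lost without replicate A or C of either p65 group. In all, 25.0% of the factors were called with VP64 and 37.5% with p65, beside 40.6% and 38.9% of all tested genes.

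Among 4 complex II subunits, 25.0% were called with guides in each background, beside 40.6% (VP64) and 38.9% (p65) of all tested genes. Only the flavoprotein SDHA was called. It had 158, 176 and 167 CPM in p65 guides and 144, 144 and 149 CPM in p65 no guides, and 175, 167 and 165 CPM in VP64 guides and 157, 144 and 149 CPM in VP64 no guides. It rose by 0.20 ± 0.04 (adjusted p = 0.0010) and 0.17 ± 0.04 (adjusted p = 0.0029) on the log2 scale, without overlap. Its pseudogene SDHAP1 averaged 86.2 counts per library, against 3068 for SDHA. The SDHA flavination factor SDHAF2 rose in the p65 background (0.19 ± 0.07, adjusted p = 0.024), a call lost without replicate B of either p65 group, and had -0.13 ± 0.07 in the VP64 background. Its overlap with AP003108.2, given above, limits these values too.

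In complex III, 3 of 8 nuclear subunits rose and none fell in each background, the core proteins UQCRC1 and UQCRC2 and the small subunit UQCR11. They are 37.5% of the list, beside 18.7% of all tested genes that rose with p65 and 19.3% with VP64. UQCRC1 had 257, 274 and 245 CPM in p65 guides and 217, 227 and 233 CPM in p65 no guides. It had 295, 287 and 268 CPM in VP64 guides and 250, 225 and 231 CPM in VP64 no guides. No library overlapped, and the log2 fold changes were 0.20 ± 0.05 (adjusted p = 0.0022) and 0.27 ± 0.05 (adjusted p = 0.00011). UQCR11 rose by 0.28 ± 0.05 (adjusted p = 0.00011) and 0.19 ± 0.05 (adjusted p = 0.0043). The core protein calls depend on the transcript lengths that RSEM assigned: with the effective-length offset UQCRC1 was not called with p65 (0.08, adjusted p = 0.29) and UQCRC2 had -0.28 with VP64 (adjusted p = 0.049), against 0.13 ± 0.04 (adjusted p = 0.0078) without the offset, so its direction in the VP64 background is uncertain.

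In complex IV all 11 nuclear subunits had positive log2 fold changes in both backgrounds, 4 rising with VP64 and 6 with p65. Those calls are 36.4% and 54.5% of the list, beside 19.3% and 18.7% of all tested genes that rose. COX5B, a zinc-binding subunit, had 76.5, 79.2 and 74.7 CPM in p65 guides and 60.4, 63.0 and 69.0 CPM in p65 no guides. It had 85.1, 84.4 and 76.1 CPM in VP64 guides and 64.5, 58.8 and 61.1 CPM in VP64 no guides. The guide libraries lay above the others without overlap, and the log2 fold changes were 0.26 ± 0.06 (adjusted p = 0.00083) and 0.41 ± 0.06 (adjusted p = 3.8e-06). The regulatory subunit COX4I1 rose by 0.20 and 0.19 and COX6A1 by 0.15 and 0.17. COX8A rose in the VP64 background (0.29 ± 0.05, adjusted p = 4.3e-05) and had 0.10 ± 0.05 (adjusted p = 0.12) in the p65 background. The mitochondrial mRNAs of the same complex, MT-CO1, MT-CO2 and MT-CO3, had values between -0.20 and -0.01, none of them called.

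**Figure D4:**
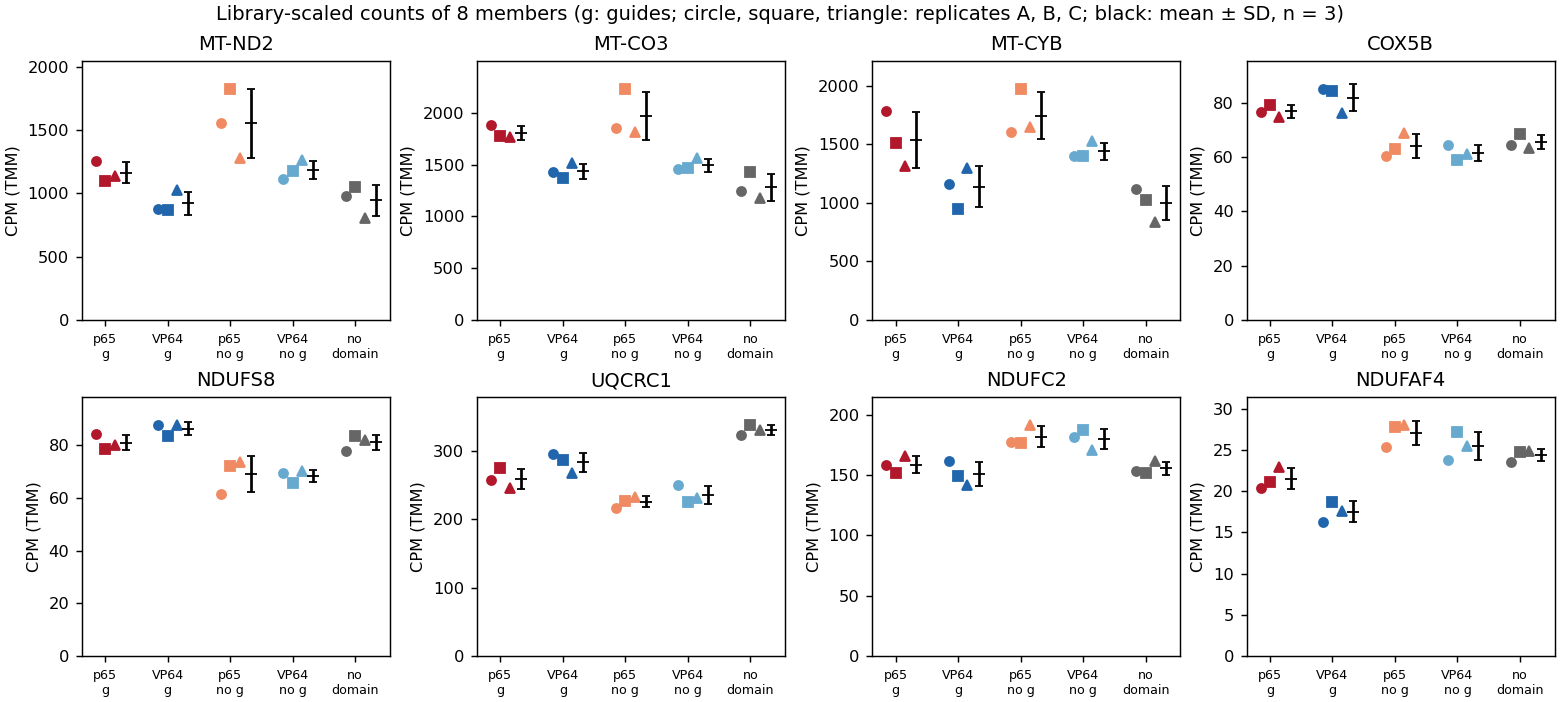
CPM on TMM-scaled library sizes of 8 members in the 15 libraries, by group, with axes starting at 0; circles, squares and triangles are replicates A, B and C and black marks are the mean ± SD (n = 3). COX5B and NDUFS8 are higher, and NDUFC2, NDUFAF4 and MT-ND2 lower, in every guide library than in every no guides library of the same nanobody. For MT-CO3 these libraries overlap. The replicates of MT-CO3 and MT-ND2 are spread more widely.

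Few stalk and membrane subunits of the ATP synthase were called, while those of the catalytic F1 head leaned upwards. Of the 5 F1 subunits, 2 rose in the VP64 background (40%) and 1 in the p65 background (20%). None fell. Over all tested genes, 19.3% rose with VP64 and 18.7% with p65. All 5 F1 subunits had positive log2 fold changes in both backgrounds, with medians of 0.11 with VP64 and 0.08 with p65. ATP5F1E, the epsilon subunit, rose in both (0.23 ± 0.04, adjusted p = 0.00013, with p65, and 0.12 ± 0.04, adjusted p = 0.024, with VP64), the second call being lost without VP64 guides replicate B or VP64 no guides replicate B. Of the 12 stalk and membrane subunits tested, 1 fell with VP64, ATP5PF of the peripheral stalk (-0.19 ± 0.05, adjusted p = 0.0041), and 1 rose with p65, ATP5MC2 of the proton-conducting ring (0.15 ± 0.04, adjusted p = 0.0032). Only 8.33% of these were called in each background, a smaller share than over all tested genes. ATP5IF1, which inhibits ATP hydrolysis by the enzyme, rose by 0.18 ± 0.05 in both (adjusted p = 0.0079 with p65, where the call was lost without p65 guides replicate A, and 0.0077 with VP64).

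Whether the guide effect differed between the nanobody backgrounds was tested directly, as the p65 change minus the VP64 change. None of the 108 members was called by edgeR, where 0.956% of all tested genes were (0.769% rose and 0.187% fell), 5 members had an unadjusted p under 0.05, and the smallest adjusted p was 0.12. For MT-ND2 the difference was -0.06 ± 0.14 and for COX5B it was -0.16 ± 0.08 (95% interval -0.32 to 0.0015), an interval that takes in 0 and differences about as large as the p65 effect of 0.26.

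Without guides, the lines with activation domains were set against the line with none. With p65, all 13 mitochondrial mRNAs rose, by 0.38 to 0.81 on the log2 scale (median 0.54, against -0.01 over all genes), beside 24.7% of all tested genes that rose and 24.9% that fell. With VP64, 3 of 13 rose and none fell (median 0.16, against -0.01 over all genes), beside 23.6% and 24.0% of all tested genes. These 2 comparisons share the no domain libraries. MT-CYB had 1602, 1973 and 1650 CPM in p65 no guides and 1401, 1395 and 1523 CPM in VP64 no guides, against 1121, 1027 and 836 CPM in no domain. Neither activator group overlapped no domain, and the log2 fold changes were 0.81 ± 0.11 (adjusted p = 2.4e-06) and 0.53 ± 0.11 (adjusted p = 0.00033). MT-CO1 had log2 fold changes of 0.45 ± 0.08 (adjusted p = 0.00014) with p65 and 0.01 ± 0.08 with VP64. MT-CO3 (0.62 and 0.22) and MT-ND2 (0.72 and 0.33) were called in both. The p65 count was 12 or 13 with any 1 library left out. The VP64 calls of MT-CO3 and MT-ND2 were lost without no domain replicate C. The VP64 count was 1 without no domain replicate C and 8 without no domain replicate B.

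Of the nuclear members, a slightly smaller share than of other genes was called: 40.0% of 95 with p65 and 43.2% with VP64, beside 49.7% and 47.6% of all tested genes. Of the subunits, 15 rose (19.2%) and 18 fell (23.1%) with p65, and 13 rose (16.7%) and 21 fell (26.9%) with VP64. Over all tested genes, 24.7% rose and 24.9% fell with p65, and 23.6% rose and 24.0% fell with VP64. UQCRC1 had the lowest log2 fold change, with 217, 227 and 233 CPM in p65 no guides and 250, 225 and 231 CPM in VP64 no guides, against 323, 338 and 330 CPM in no domain. The log2 fold changes were -0.55 ± 0.05 (adjusted p = 4.0e-09) and -0.49 ± 0.05 (adjusted p = 2.7e-08). NDUFV1 (-0.43 and -0.39), UQCRC2 (-0.39 in both) and the complex IV subunit COX7B (-0.24 and -0.30) also fell, UQCRC2 with VP64 having -0.05 under the effective-length offset. Core complex I showed 4 falls and no rise of 7 in both (57.1% fell, beside 24.9% and 24.0% of all tested genes). Of 30 complex I supernumerary subunits, 7 rose in each comparison (23.3%), near the 24.7% and 23.6% of all tested genes. Among them were NDUFA13 (0.36 and 0.38), NDUFB11 (0.32 and 0.30), NDUFC1 (0.30 and 0.31) and NDUFA3 (0.27 and 0.39). NDUFB11 and NDUFA3 overlap RBM10 and TFPT on the opposite strand, so the source of their reads is uncertain. Of the 17 accessory genes, 3 rose and 2 fell with p65 (17.6% and 11.8%). With VP64, 4 rose and 3 fell (23.5% and 17.6%). These shares were no higher than those of all tested genes. The assembly factors NDUFAF8 (0.36 and 0.38) and SDHAF1 (0.35 and 0.33) rose in both. NDUFAF7 fell in both (-0.33 and -0.41), calls lost under 5 and 2 alternatives. NDUFAF3 fell with p65, a call lost under 1 alternative, and SDHAF3 fell with VP64 (-0.36). The p65 calls of COX7B, without no domain replicate B, and of NDUFA3, without p65 no guides replicate C or no domain replicate C, were lost.

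Several genes that rose with guides were the ones that were lower without guides than in no domain, and the no guides libraries stand in both comparisons. NDUFS8 had 77.9, 83.5 and 82.1 CPM in no domain, close to its guide libraries. UQCRC1 in the guide libraries, at 245 to 295 CPM, lay between no guides and no domain. COX5B differed: its no domain libraries, at 64.4, 68.3 and 63.4 CPM, lay with those without guides, and it was called in neither comparison with no domain.

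Transcript length went with these changes in the nuclear subunits. Across the 78 subunits, Spearman's rho between the median effective length and the log2 fold change was -0.28 with p65 and -0.29 with VP64, while across all 13049 tested protein-coding genes it was 0.20 and 0.18. Genes are not independent replicates, and these are descriptions. Subunits that rose had a median effective length of 351 bases in both comparisons, against 901 bases with p65 and 587 bases with VP64 for those that fell. In the 12 subunits of 1200 bases and over, the median log2 fold change was -0.11 in both, against 0.02 in the 10228 protein-coding genes of that length. With guides against no guides, rho was -0.05 with p65 and -0.01 with VP64 among the subunits.

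**Figure D5:**
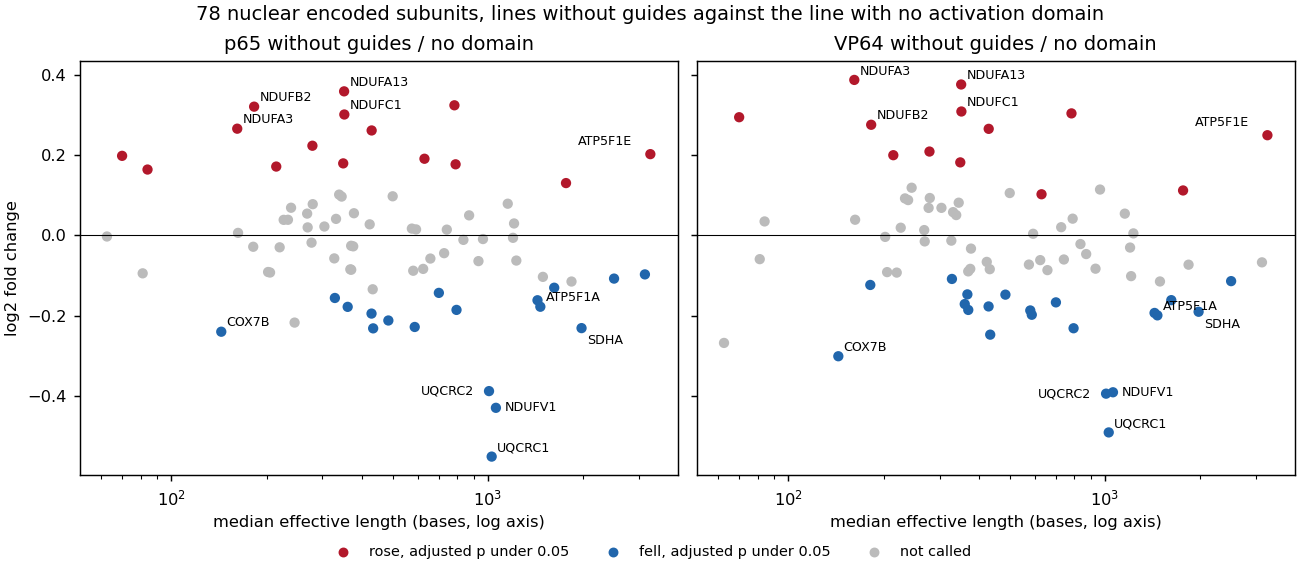
Log2 fold change of the 78 nuclear encoded subunits against their median effective length in bases (log axis), p65 no guides against no domain (left) and VP64 no guides against no domain (right), coloured where the edgeR adjusted p was under 0.05. Several subunits near 1000 bases, UQCRC1, UQCRC2 and NDUFV1, lie lowest, while NDUFA13 lies highest with p65 and NDUFA3 with VP64.

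The genes that make and handle mitochondrial transcripts, from lists outside the symbol rule, are given next for the guide comparisons, where 18.7% of all tested genes rose and 20.2% fell with p65 and 19.3% rose and 21.3% fell with VP64. Of 8 genes for transcription of mitochondrial DNA, 1 rose and 4 fell with p65 and 1 rose and 2 fell with VP64. TFAM, which packages and activates mitochondrial DNA, had 78.9, 73.2 and 83.1 CPM in p65 guides and 102, 101 and 93.6 CPM in p65 no guides, and 70.6, 69.6 and 75.4 CPM in VP64 guides and 85.7, 88.5 and 91.0 CPM in VP64 no guides. Its log2 fold changes were -0.33 ± 0.05 (adjusted p = 1.2e-05) and -0.30 ± 0.05 (adjusted p = 4.8e-05), with no overlap. TFB2M, the initiation factor, fell in both (-0.24, not called without p65 guides replicate B, and -0.45), and POLRMT rose with p65 (0.28 ± 0.05, adjusted p = 3.0e-05) and had 0.05 ± 0.05 with VP64. Of 19 genes for processing, stability and decay of mitochondrial RNA, 2 rose and 9 fell with p65 and 2 rose and 8 fell with VP64, so that 47.4% and 42.1% of the list fell. Among them PNPT1, a mitochondrial polynucleotide phosphorylase, had -0.44 and -0.46, and the polyadenylating enzyme MTPAP had -0.36 and -0.26. With the effective-length offset neither PNPT1 call held, its VP64 value being -0.03, nor the VP64 call of MTPAP. Of 11 genes for mitochondrial DNA maintenance, 1 rose and 4 fell with p65 and 1 rose and 3 fell with VP64. In either direction 45.5% and 36.4% were called, near the 38.9% and 40.6% of all tested genes. By direction, 9.09% rose in each, and 36.4% and 27.3% fell. The helicase TWNK fell (-0.39 and -0.64) and the thymidine kinase TK2 rose (0.31 and 0.56). Of 12 biogenesis regulators, none rose, while 4 fell with p65 (33.3%) and 5 with VP64 (41.7%). Over all tested genes, 20.2% and 21.3% fell, and 18.7% and 19.3% rose. Among the regulators that fell were HCFC1 (-0.38 and -0.32) and the GABP subunit GABPB1 (-0.30 and -0.49). The p65 call of GABPB1 was lost with the effective-length offset.

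Assembly and carrier genes outside the rule included calls in both directions. SURF1, a complex IV assembly factor, had 18.7, 18.7 and 18.3 CPM in p65 guides and a mean of 12.8 ± 0.342 CPM in p65 no guides, and 24.4, 18.2 and 17.7 CPM in VP64 guides and a mean of 12.4 ± 0.698 CPM in VP64 no guides. It rose in both without overlap (0.54 ± 0.10, adjusted p = 0.00013, and 0.69 ± 0.10, adjusted p = 7.4e-06). Cytochrome c itself, CYCS, had 462, 459 and 545 CPM in p65 guides and 705, 673 and 695 CPM in p65 no guides, and 469, 442 and 450 CPM in VP64 guides and 690, 645 and 662 CPM in VP64 no guides. It fell by 0.50 ± 0.05 (adjusted p = 7.2e-08) and 0.55 ± 0.05 (adjusted p = 1.5e-08) on the log2 scale. SQOR, which feeds electrons from sulfide into ubiquinone, rose (1.04 ± 0.07 and 0.68 ± 0.07), and GPD2, which feeds them from glycerol phosphate, fell (-0.34 and -0.39, with -0.23 and no call for VP64 with the offset). Of the 22 carriers and entry points, 9 rose and 6 fell with p65 and 8 rose and 6 fell with VP64. That is 68.2% and 63.6% called, beside 38.9% and 40.6% of all tested genes. The 30 gene symbols for complex III and IV assembly gave 31 annotated entries. Of these entries, 4 rose and 9 fell with p65 and 2 rose and 9 fell with VP64. That is 41.9% and 35.5% called and near that background. The insertase OXA1L rose (0.33 and 0.34). Of 10 complex I assembly genes outside the rule, 2 rose in both, with 1 falling with p65 and 2 with VP64 (30.0% and 40.0% called). Of 14 citric acid cycle genes, 4 rose and 3 fell with p65 and 5 rose and 3 fell with VP64, so that 28.6% rose and 21.4% fell with p65 and 35.7% rose and 21.4% fell with VP64.

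Against no domain, the lines without guides had lower levels of TFB1M, which methylates the small mitochondrial rRNA. It had 14.3, 14.6 and 16.3 CPM in p65 no guides and averaged 15.9 CPM in VP64 no guides, against 34.2, 34.3 and 36.0 CPM in no domain, with log2 fold changes of -1.21 ± 0.09 (adjusted p = 3.9e-10) and -1.13 ± 0.09 (adjusted p = 1.3e-09). The coactivator PPARGC1A, at 2.80 and 2.62 CPM against 4.73 CPM in no domain, fell too (-0.75 and -0.85), the p65 call being lost with the effective-length offset. TFB1M, PPARGC1A and NDUFS1 were picked after their values were seen.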

How the data were processed

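RNA-seq libraries of MelJuSo lines were analysed in 5 groups of 3, grouped by their labels. A service provider did the extraction, library preparation and sequencing, and no strandedness is stated in the labels. The deposited files hold RSEM gene tables: per the file headers, expected counts, TPM and effective lengths, made by the authors with STAR and RSEM on hg38, per the submitters' processing notes. RSEM divides reads shared by overlapping or similar genes, and TPM of mRNAs shorter than a fragment is inflated.

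Expected counts were rounded to whole numbers. Spike-in entries (92, together at most 7 counts in any library) stayed out. Genes passing filterByExpr (minimum count 10) were tested with edgeR 4.0.16 (R 4.3.3, limma 3.58.1): TMM scaling, 1 coefficient per group over all 15 libraries and a quasi-likelihood F test with Benjamini-Hochberg adjustment over 14961 genes, threshold 0.05. SE is the log2 fold change divided by the square root of F. The script was tested on simulated data. Depth ran from 15643705 to 23072512 expected counts, and the common biological coefficient of variation was 5.45%.

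Alternatives were DESeq2 1.42.0 (size factors or Wald test), other filters, the compared libraries alone, a replicate block, an offset for the deposited effective lengths, and each library left out. Members and lists were chosen with earlier results of these data known. Named genes were all mitochondrial mRNAs, the nuclear members with the largest changes per comparison (up to 6 per direction), the smallest p in each complex (the paralogs and retrocopies given with their levels) and, in each pathway list, up to 3 with the smallest p. Overlapping genes were read from GENCODE release 29. Named nuclear members with a gene on the opposite strand also include NDUFB3, ATP5PF, NDUFS1 and NDUFAF7. The limit of unknown strandedness holds for such members too. Promoter windows were credited to RefSeq, whose coordinates belong to GRCh38.p14.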

Additional observations from a re-analysis of the deposited data

How the results depend on the processing

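The mitochondrial median stayed on the same side of the nuclear subunit median in every fit of the 6 comparisons between groups, while counts of calls moved. For mitochondrial mRNAs called, the values without a low-count filter were 10 (guides with VP64, against 4), 11 (guides with p65, against 4), 13 (p65 against VP64 without guides, against 7) and 12 (VP64 against no domain, against 3). With only the compared libraries they were 9, 7, 12 and 6. DESeq2's Wald test called 1, 1 and 4 in the first 3 and 3 with guides between p65 and VP64 (against 9). The effective-length offset left 2 with VP64 guides, 1 and 2 between p65 and VP64 without and with guides. It left 17 nuclear members that rose with p65 guides, against 27, and 0 that rose between p65 and VP64 with guides, against 3, where the compared libraries alone gave 1. The 1 nuclear fall there became 0 under no filter, DESeq2, the compared libraries alone, the replicate block and the offset, and no filter gave 1 fall between p65 and VP64 without guides. The offset turned UQCRC2 (guides with VP64) to -0.28, NDUFAF4 (p65 against VP64 with guides) to -0.077 and TFAM (p65 against no domain) to -0.049; the cause was not tested.

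With 1 library left out, mitochondrial calls ranged over 1 to 5 (guides with VP64), 1 to 9 (guides with p65), 2 to 9 and 1 to 9 (p65 against VP64 without and with guides), 1 to 8 (VP64 against no domain), 12 to 13 (p65 against no domain) and 0 to 0 (difference of guide effects). Nuclear rises ranged over 18 to 31, 20 to 33, 0 to 0, 1 to 3, 14 to 17, 15 to 19 and 0 to 1, and nuclear falls over 5 to 9, 3 to 6, 0 to 0, 0 to 2, 17 to 22, 15 to 20 and 0 to 0, in the same order. Of 222 calls of named genes, 134 held under every alternative run. Same-lettered libraries did not deviate together (correlations of -0.073 to 0.064 over 30 pairs), which does not tell what the letters stand for. The replicate block gave 4, 4, 6, 6, 4 and 13 mitochondrial calls. Depth limits low members such as UQCRHL and the readthrough genes, whose standard errors exceed most changes reported.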
